A study of Mus musculus with 6 samples.

Results

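Distal regions with an accessibility peak only after mitogen withdrawal are described here, in cultured adult neural stem cells of the mouse that lack the *Srr2* enhancer of *Sox2*. A DIFF-only distal region is a stretch of autosomal DNA with an ATAC-seq peak in all 3 differentiating libraries and in none of the 3 proliferating libraries, whose nearest edge lay over 3 kb and up to 100 kb from any annotated transcript start. Of 116783 merged autosomal regions, 76042 were distal by this distance, and 3117 of them met the whole definition. This was 4.1% of all distal regions, and the mirror pattern, PROLIF-only, made up 2.02% (1535 regions). The members were chosen by the presence of peaks in these 6 lists, so their presence and strength are given as a description, with no test.

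All cultures came from the subependymal zone (SEZ) of mice aged 10 weeks, in which CRISPR-Cas9 had removed *Srr2* (*Srr2* del/del), so both states share the mutation. The study bred 2 such strains, and the labels do not say which one gave these cultures. Proliferating cultures (PROLIF) had, by the sample labels and the study's methods, 2 days in vitro on Matrigel with FGF. The series description instead speaks of neurospheres at 3 DIV (days in vitro), and if that holds, floating and attached growth cannot be told apart from the states. Early differentiating cultures (DIFF) had the same 2 days followed by 24 h (1 day) without mitogens in medium with 2% fetal bovine serum, so loss of mitogen and gain of serum cannot be told apart. Each state had 3 libraries, replicates 1, 2 and 4, made from 50000 cells each. Wild-type cultures were not analysed here. In ATAC-seq a transposase cuts and tags open DNA. The cultures mix stem cells and progenitors, so a region open in more cells and a region more open in each cell cannot be told apart. Promoters of the neural stem cell markers *Sox2*, *Nes*, *Pax6*, *Egfr*, *Olig2*, *Slc1a3*, *Fabp7* and *Gfap* each had a peak in all 6 libraries. Of the microglial markers, 2 of 6 had a promoter peak in all 6 libraries and 2 of 6, *Cx3cr1* and *Ptprc*, had none in any. Of the endothelial markers this was 1 of 5 and 3 of 5, and of the mature oligodendrocyte markers 1 of 4 and 1 of 4. The promoter of the endothelial gene *Pecam1* had a peak in 3 PROLIF and 0 DIFF libraries, whose part in the results was not tested.

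Open DNA far from promoters often marks enhancers, which are stretches bound by transcription factors that act on a gene from a distance. AP-1, the dimers of FOS and JUN proteins, is induced by growth factors through ERK signalling. Factors of the nuclear factor I family (NFI) are known in neural stem cells from quiescence and from glial differentiation. NFI dimers bind a palindrome with TTGGCA as each arm, and a single arm is bound more weakly. The motif TTGGCA, 1 arm, is called the NFI motif here.

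The sequences below are the reference around the summits of the 6 highest ranked DIFF-only distal regions that hold the NFI motif, and of the highest ranked one that holds the AP-1 motif TGACTCA. They are shown because these 2 motifs carry the sequence results below. Each runs 5′ to 3′ on the plus strand of GRCm38 and is named by the nearest protein-coding start. Capitals mark the NFI motif (TTGGCA or its reverse complement TGCCAA), and in the last sequence the AP-1 motif (here its reverse complement TGAGTCA).
Hhat region, chr1:192789265-192789465: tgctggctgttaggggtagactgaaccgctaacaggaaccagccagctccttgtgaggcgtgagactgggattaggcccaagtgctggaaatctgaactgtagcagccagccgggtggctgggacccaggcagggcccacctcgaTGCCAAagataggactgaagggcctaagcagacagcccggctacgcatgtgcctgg
P4ha1 region, chr10:59310777-59310977: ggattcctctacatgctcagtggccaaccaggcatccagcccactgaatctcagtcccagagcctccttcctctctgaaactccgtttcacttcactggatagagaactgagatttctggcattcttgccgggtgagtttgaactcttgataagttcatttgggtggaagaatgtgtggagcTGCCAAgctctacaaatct
Atp2a2 region, chr5:122526510-122526710: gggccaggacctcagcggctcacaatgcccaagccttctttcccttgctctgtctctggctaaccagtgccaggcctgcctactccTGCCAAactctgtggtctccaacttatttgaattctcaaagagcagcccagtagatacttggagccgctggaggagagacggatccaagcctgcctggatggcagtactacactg
Chst8 region, chr7:34709260-34709460: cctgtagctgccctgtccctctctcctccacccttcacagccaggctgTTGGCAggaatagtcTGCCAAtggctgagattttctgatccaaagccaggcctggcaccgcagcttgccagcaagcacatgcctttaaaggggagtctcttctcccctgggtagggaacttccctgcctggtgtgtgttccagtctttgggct
Dusp6 region, chr10:99488818-99489018: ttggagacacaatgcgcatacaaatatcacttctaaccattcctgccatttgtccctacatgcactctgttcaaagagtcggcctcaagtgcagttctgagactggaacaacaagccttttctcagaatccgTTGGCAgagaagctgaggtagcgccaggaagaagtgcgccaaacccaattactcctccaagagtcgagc
Ifit3 region, chr19:34577213-34577413: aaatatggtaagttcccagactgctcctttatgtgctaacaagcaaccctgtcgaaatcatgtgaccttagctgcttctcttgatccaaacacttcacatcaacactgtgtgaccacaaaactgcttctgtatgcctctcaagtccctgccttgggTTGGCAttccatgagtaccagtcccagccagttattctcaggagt
Ephb3 region, AP-1, chr16:21274234-21274434: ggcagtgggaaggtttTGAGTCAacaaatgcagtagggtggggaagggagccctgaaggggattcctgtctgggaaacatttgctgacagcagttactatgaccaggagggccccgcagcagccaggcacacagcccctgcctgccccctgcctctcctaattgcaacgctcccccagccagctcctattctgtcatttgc

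The region upstream of *Hhat*, which encodes the acyltransferase of hedgehog proteins, ranked first by the lowest of its 3 within-library percentiles. It was intergenic, 17874 bp from the start, and its fold enrichment over the local background of the library was 9.63 in DIFF 1, 10.5 in DIFF 2 and 8.71 in DIFF 4. The region upstream of *P4ha1*, a collagen prolyl hydroxylase, had fold enrichments of 11.0, 11.7 and 10.3 in the same order. The *Chst8* region lay in an intron of that sulfotransferase gene and holds 2 NFI motifs in opposite orientation, with fold enrichments of 9.10, 11.5 and 10.0. The *Dusp6* region lay 222465 bp downstream of the start of this ERK phosphatase gene, the nearest coding start, with values of 9.10, 10.3 and 11.0. The region with the AP-1 motif lay in an intron of a noncoding gene, 52153 bp downstream of the start of the ephrin receptor gene *Ephb3*, with values of 8.16, 12.3 and 7.97. In all 7 printed regions fold enrichment was higher in DIFF 2 than in DIFF 1, as it was for the median of the whole group.

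Most DIFF-only distal regions were weak peaks. Their median fold enrichment was 3.88 in DIFF 1, 4.55 in DIFF 2 and 3.99 in DIFF 4, with 18, 18 and 28 reads piled up at the summit. Ranked by −log10 p among the autosomal peaks of the same library, their median percentile was 31.2, 34.3 and 42.5. Distal regions open in all 6 libraries had median percentiles of 62.5, 63.2 and 70.1 in these libraries. PROLIF-only distal regions were also low in their own libraries, with median percentiles of 47.9, 33.8 and 31.0 in PROLIF 1, 2 and 4. By the lowest of its 3 percentiles, 329 regions (10.6%) reached the upper part of every list (percentile 50), 14 reached percentile 75 and 0 reached percentile 90. Their median width was 343 bp, against 649 bp for distal regions in all 6 libraries and 372 bp for PROLIF-only distal regions. All distal regions had a median of 279 bp. The 3 widest lay nearest to *Sorl1* (1652 bp), *Haao* (1305 bp) and *Tmem170b* (1278 bp).

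**Figure D1:**
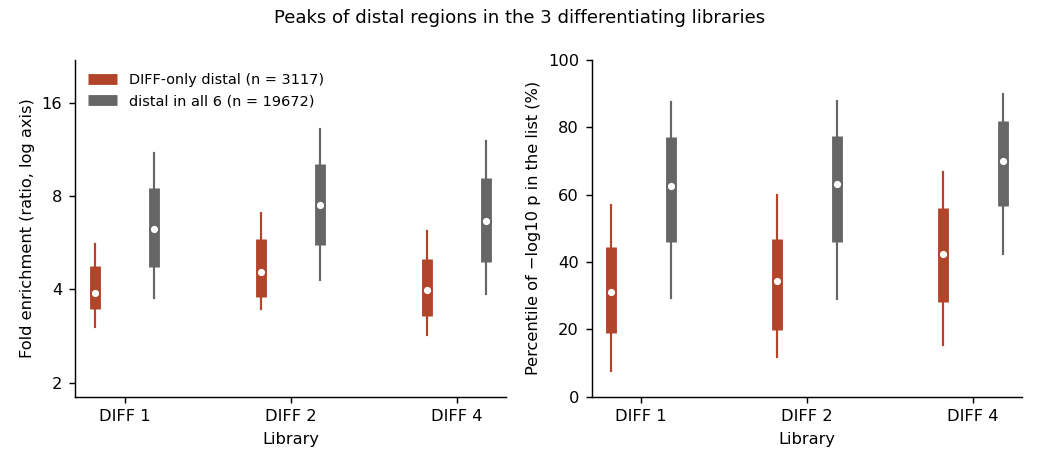
Fold enrichment (left, log axis) and within-list percentile of −log10 p (right) of DIFF-only distal regions (red, n = 3117) and of distal regions in all 6 libraries (grey, n = 19672) in each DIFF library. Circles are medians, thick bars the quartiles and thin lines percentiles 10 to 90; the DIFF-only medians of 3.88 to 4.55 lie under the grey ones in every library.

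The background pileup was 2.85 to 2.97 reads in the PROLIF libraries, against 3.63, 2.96 and 6.01 reads in DIFF 1, 2 and 4, and the lowest pileup called was 10 to 15 reads. No peak in PROLIF therefore means too few reads for a call, and accessibility below that level was not measured. Around the definition, 2789 distal regions had a peak in all DIFF libraries and in 1 PROLIF library, which was PROLIF 1 for 2059, PROLIF 2 for 511 and PROLIF 4 for 219. Another 3899 had no PROLIF peak and lacked 1 DIFF peak, in DIFF 1 for 2055, in DIFF 2 for 1441 and in DIFF 4 for 403. In PROLIF these counts had the same order as the background pileup, 2.97, 2.94 and 2.85 in PROLIF 1, 2 and 4. The numbers of autosomal peaks (80279, 64687 and 58188) had that order too. DIFF 4, with the highest background (6.01), was least often the library lacking a peak. DIFF 1 lacked one more often than DIFF 2, though its background was higher. The part of depth was not tested. Without PROLIF 1 the number of DIFF-only distal regions rose to 5183, and without DIFF 1 to 5191. DIFF-only outnumbered PROLIF-only distal regions under 17 of 18 settings, and the order turned when each list was limited to its strongest 20000 peaks, with 846 DIFF-only and 1158 PROLIF-only.

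The distance limits left out 808 of the 4108 autosomal DIFF-only regions as too near a start (up to 3 kb) and 183 as too far (over 100 kb). Just inside the lower limit lay regions near *Tanc1* (3002 bp from the nearest start of any kind), *Nrf1* (3003 bp) and *Wdr20rt* (3005 bp). Just outside lay regions near *Maml2* (2988 bp), *Ssr3* (2994 bp) and *Cst3* (2994 bp). Fold enrichments ran from 2.85 to 10.1 inside and from 2.99 to 5.61 outside. At the upper limit the regions just inside lay near *Rbm26* (99737 bp), *Cdh6* (99749 bp) and *Camta1* (99769 bp), with fold enrichments from 2.42 to 5.02, and those just outside near *Cdc5l* (102244 bp), *Pcsk1* (102477 bp) and *Igfbp7* (102573 bp), with 2.18 to 11.5.

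DIFF-only distal regions lay inside genes more often than other distal regions did. By the summit, 1599 (51.3%, 95% Wilson interval 49.5 to 53.1%) fell in an intron of a protein-coding gene and 1248 (40.04%, 38.3 to 41.8%) between genes. Introns held 42.6% of PROLIF-only distal regions (40.2 to 45.1%), 43.5% of distal regions in all 6 libraries and 43.2% of all distal regions. These intervals cover counting error only, since regions of the same libraries are not replicates. Another 154 lay in introns of noncoding genes only, 30 in coding exons, 71 in other exons of coding genes and 15 in exons of noncoding genes. With each list limited to its strongest 20000 peaks the intron share was 46.1%, against 43.6% of all distal regions and 43.1% of PROLIF-only ones.

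The intronic regions mostly sat in the gene whose start was nearest. Of the 1599, 1406 (87.9%) had their nearest coding start in the host gene, and 1212 different genes were hosts. Host genes had a median length of 161 kb against 183 kb for PROLIF-only and 166 kb for all distal regions. The median distance to a coding start was 26366 bp, against 35298 bp for PROLIF-only, 28641 bp for regions in all 6 libraries and 31565 bp for all distal regions. The nearest start of any kind belonged to a coding gene for 1642 (52.7%), to a processed pseudogene for 414 (13.3%) and to a lincRNA for 359 (11.5%). By chromosome, the share of distal regions that were DIFF-only ran from 2.98% on chromosome 1 to 6.20% on chromosome 11. Chromosome 1 nonetheless had the most DIFF-only distal regions (281), among the largest number of distal regions (9440).

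Target genes were assigned by position alone, as the protein-coding gene with the nearest start within 100 kb, which says nothing of which gene a region acts on. This assigned 2553 regions (81.9%) to 2081 genes, and 564 had no coding start within that distance. Of these genes, 1725 had 1 region, 272 had 2 and 84 had 3 or more. PROLIF-only distal regions lay at 302 of the 2081 genes (14.5%), which is 28.9% of the 1044 genes with a PROLIF-only distal region. Of all 12416 coding genes with a distal region, 8.41% had a PROLIF-only one and 16.8% a DIFF-only one. These shares per gene do not allow for genes with more distal regions, which are likelier to hold either kind. The number 84 depended on the libraries and on list length: it was 223 without PROLIF 1, 222 without DIFF 1, 171 without DIFF 2, and 52 with lists of equal length.

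Promoters of the target genes mostly had peaks in both states. In all, 1726 of the 2081 (82.9%) had a promoter peak in all 6 libraries, against 71.9% of coding genes with any distal region. Only 8 (0.384%) had a promoter peak in all DIFF and no PROLIF libraries, against 0.419% of coding genes with any distal region. The promoter shares, too, do not allow for the number of distal regions per gene.

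The genes that follow were ranked by their number of DIFF-only regions, so their high shares follow in part from that ranking. *Nav2*, which encodes a protein of growing neurites, led the genes by number, with 7 of its 73 distal regions (9.59%), against a background of 4.32% over all distal regions assigned to coding genes. All 7 lay within the gene, 6 of them in introns. The highest ranked, on chromosome 7 from 49525382 to 49525829, had fold enrichments of 4.24 in DIFF 1, 5.63 in DIFF 2 and 4.64 in DIFF 4. *Ptprd*, a receptor phosphatase that organises synapses, had 6 of 44 (13.6%), all in introns, with fold enrichments from 2.71 to 4.80.

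Genes with 5 such regions followed. *Dock4*, an activator of the small GTPase Rac, had 5 of 21 (23.8%), all intronic, and the highest ranked of them had fold enrichments of 7.30, 6.81 and 6.08. *Megf11*, a receptor with EGF-like repeats that spaces neurons in the retina, also had 5 of 21 and its highest ranked region had 6.79, 6.06 and 5.99. *Cacna1a*, the pore subunit of P/Q-type calcium channels, had 5 of 23 (21.7%), all in introns. In its highest ranked region, on chromosome 8 from 84467020 to 84467298, fold enrichments were 6.69, 7.83 and 6.56. The tetraspanin gene *Tspan9* had 5 of 28 and *Gse1* 5 of 38.

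*Aqp4*, the water channel of astrocyte endfeet, had the highest share among the 20 genes with most regions, at 4 of 10, and 1 of its 10 distal regions was open in all 6 libraries. All 4 lay upstream of the gene, between 10147 and 54308 bp from its start, and the most distant was in an intron of *Chst9*. The nearest, on chromosome 18 from 15421129 to 15421857, had fold enrichments of 8.63 in DIFF 1, 10.4 in DIFF 2 and 10.7 in DIFF 4. The one from 15441821 to 15442163 had 7.73, 9.10 and 7.70. Both were above the group's median in every DIFF library.

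Regulators with several regions included *Rfx4*, a transcription factor of brain development, with 4 of 11 (36.4%), and *Smad6*, the inhibitory SMAD of BMP signalling, with 4 of 11 (36.4%). At *Smad6*, 3 of the 4 lay in introns, with fold enrichments from 3.88 to 5.42 in all libraries, and the other, 36219 bp upstream, had 3.02 in DIFF 1, 4.30 in DIFF 2 and 3.14 in DIFF 4. At *Rfx4* the highest ranked had 4.75, 5.56 and 4.85. Also with 4 were *Tnrc6b* (of 12), a scaffold of miRNA silencing, *Thsd4* (of 13), a microfibril protein, *Agtpbp1* (of 14), which trims glutamate chains from tubulin, and *Rptor* (of 14), a subunit of mTORC1. *Dync1i1* (of 15), *Nmnat2* (of 19), *Grid1* (of 21), *Ncam1* (of 23), *Tenm4* (of 35), *Pid1* (of 39) and the cadherin gene *Cdh4* (of 41) had 4 as well, and so did *Vav3*, which the naming rule left out and which was added after its count was seen. Among these, Dync1i1 is a dynein subunit, Nmnat2 an NAD enzyme, Grid1 a delta glutamate receptor, and Ncam1 and Tenm4 are adhesion proteins. The *Tenm4* intron region from 96505463 to 96506278 on chromosome 7 was at rank 3 of all, with fold enrichments of 10.1, 14.4 and 12.7.

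Lineage and cell cycle genes were also looked up whatever their values. *Nfia*, which promotes the switch to gliogenesis, had 3 of 23 distal regions (13.0%), all in introns, with fold enrichments from 3.23 to 5.81. *Nfib* had 1 of 25, 56693 bp upstream, with 4.26 in DIFF 1, 4.14 in DIFF 2 and 3.13 in DIFF 4. *Nfix* had 0 of 8 and *Nfic* 0 of 2. *Sox2* had 0 of 12, the oligodendroglial factors *Olig2* and *Sox10* 0 of 5 and 0 of 2, the cell cycle inhibitor *Cdkn1b* 0 of 3 and *Id3* 0 of 3. At *Id3*, 2 of the 3 were PROLIF-only. No distal region was assigned to *Gfap*.

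Gene classes were compared by the share of their distal regions that were DIFF-only, which allows for long genes with many regions. The background was 4.32% of 59123 distal regions assigned to coding genes. The share was above it for 11 of 24 lists, and the 95% Wilson interval of the share lay above the background for 0 lists, included it for 21 and lay below it for 3. The highest shares were those of cell cycle exit genes, with 9 of 124 regions (7.26%, 3.87 to 13.2%), nuclear factor I genes with 4 of 58 (6.90%, 2.71 to 16.4%) and astrocyte genes with 16 of 246 (6.50%, 4.04 to 10.3%). Genes the study named as lower in the mutant in DIFF, a list not independent of these cultures, had 8 of 124 (6.45%), with 2 of 11 at *Reln*. PROLIF-only regions, with a background of 1.99%, made up 2.42%, 0% and 4.07% of the distal regions of cell cycle exit, nuclear factor I and astrocyte genes, and 3.23% of those the study named.

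Cell cycle exit genes with 2 or more regions were *Gas1* (3 of 18), a growth arrest protein, and *Foxo6* (2 of 11), a forkhead factor. The *Gas1* region 71260 bp downstream had fold enrichments of 7.87, 7.42 and 7.70 in DIFF 1, 2 and 4, and the other 2 had values between 2.71 and 4.14. Astrocyte genes with 2 or more were *Aqp4*, *Nfia* and *Fgfr3*, a receptor kinase of astrocyte precursors (2 of 6). Glutamate and GABA receptor genes had 18 of 289 (6.23%, 3.98 to 9.63%), led by *Grid1*, the kainate receptor gene *Grik4* (3 of 18) and the metabotropic GABA receptor gene *Gabbr2* (2 of 17). At *Grid1* the highest ranked region had fold enrichments of 7.34, 12.1 and 9.98.

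BMP, TGF-beta and Id genes had 13 of 244 (5.33%), led by *Smad6* and then *Tgfb2* (2 of 17). PROLIF-only regions were also 13 of these 244, but the backgrounds differ, at 4.32% for DIFF-only and 1.99% for PROLIF-only. Nuclear receptor genes had 12 of 227 (5.29%), with 2 of 10 at *Rorb*, and extracellular matrix genes 38 of 725 (5.24%), led by the membrane protease gene *Mmp16* (3 of 12). Wnt pathway genes had 13 of 273 (4.76%), with 2 of 8 at the ligand gene *Wnt5b*. Potassium, sodium and calcium channel genes had 42 of 927 (4.53%), where *Cacna1d* (3 of 13) and *Cacna1i* (2 of 7) joined *Cacna1a*. Axon guidance and synaptic adhesion genes had 39 of 862 (4.52%), with *Tenm4* first, then the ephrin receptor *Ephb2* (3 of 21), *Tenm3* (3 of 26) and the repellent *Slit3* (3 of 29).

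Notch pathway genes had 7 of 187 (3.74%), SOX family genes 5 of 131 (3.82%) with 2 of 23 at *Sox6*, and oligodendrocyte lineage genes 8 of 236 (3.39%) with 2 of 12 at *Bcas1*. Stem cell and mitogen response genes had 9 of 285 (3.16%), 2 of them among the 29 distal regions of *Egfr*. Neural POU and homeobox factors had 12 of 396 (3.03%) and early neuron genes 12 of 421 (2.85%, 1.64 to 4.92%), with 2 of 27 at the microtubule gene *Map2* and 2 of 46 at *Nrxn3*. Solute carrier genes had 44 of 1237 (3.56%) and cadherin and protocadherin genes 12 of 365 (3.29%). The control lists were 2 of 50 (4.00%) for microglia and 3 of 96 (3.12%) for endothelial and mural genes. Intervals below the background were those of zinc finger genes (21 of 915, 2.30%), olfactory and vomeronasal receptor genes (5 of 444, 1.13%) and cytosolic ribosomal protein genes (1 of 144, 0.694%).

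**Figure D2:**
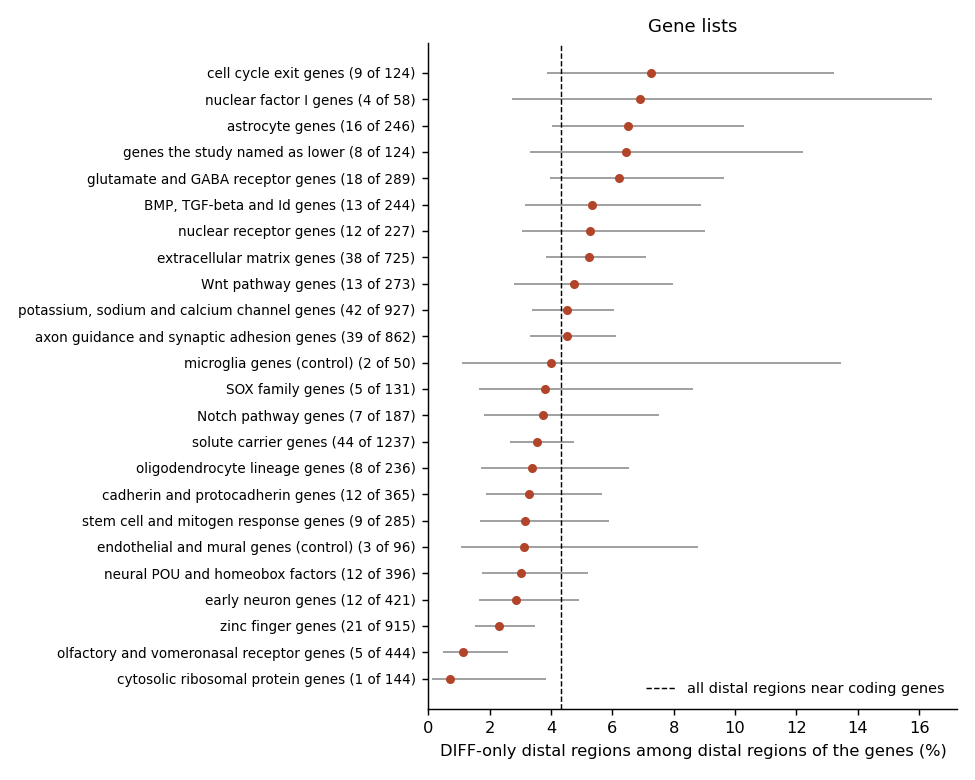
Share of distal regions assigned to the genes of each list that were DIFF-only (points, with the 95% Wilson interval; the number of regions stands beside each name). The dashed line is the share over all distal regions assigned to coding genes, 4.32%, and it crosses the interval of 21 of 24 lists.

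The median gap from a DIFF-only distal region to the nearest other one was 163 kb, and 326 (10.5%) lay within 20 kb of another. Linking at gaps up to 20 kb gave 148 pairs, 10 clusters of 3 and none larger, while 2791 stood alone. PROLIF-only distal regions, which are fewer, had 4.30% within 20 kb, in 33 pairs. With lists of equal length, where the sets are closer in size (2555 and 2143), the shares were 9.32% and 6.86%, and the order turned with the strongest 20000 peaks, at 3.07% of 846 and 5.61% of 1158. The nearest other distal region was itself DIFF-only for 165 (5.29%). The nearest neighbour was DIFF-only for 3.84% of PROLIF-only, 4.09% of regions in all 6 libraries and 3.97% of all distal regions.

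The tightest cluster of 3 lay nearest to *Nrcam*, a neuronal adhesion gene, and spanned 4.23 kb. Others lay at *Slc9a3r1* and *Nat9* (6.76 kb), in *Dock4* (11.5 kb), and near *Rbm33* (20.3 kb), *Insc* (20.8 kb), which orients the mitotic spindle, and *Aqp4* (21.04 kb). The remaining 4 lay at *Atp6v0e* and *Crebrf* (21.1 kb), in *Nmnat2* (23.6 kb), and near the adrenergic receptor gene *Adra2c* (30.7 kb) and the transcription factor gene *Snai1* (34.0 kb). Regions open in all 6 libraries lay within 3 of them, those in *Dock4*, near *Insc* and in *Nmnat2*.

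Sequence was not used to choose these regions. The NFI motif TTGGCA, looked for up to 100 bp either side of the summit and on each strand, as were all motifs here, lay in 1031 of 3117 (33.1%, 95% Wilson interval 31.4 to 34.7%). It lay in 20.0% of PROLIF-only (18.1 to 22.1%), 22.2% of distal regions in all 6 libraries and 20.4% of all distal regions. At least 2 NFI motifs lay in 200 DIFF-only regions (6.42%), against 2.02%, 3.00% and 2.60% in the same order. The full palindromic NFI site, of which this motif is an arm, lay in 2 DIFF-only regions (0.0642%), against 0.261%, 0.137% and 0.0999% in the same order. The excess of the NFI motif held against all distal regions and against PROLIF-only regions under all 18 settings. When all 2077 words of 6 letters that could be ranked were compared, a step chosen after the data were seen, the NFI motif stood first by the ratio of its share in DIFF-only regions to that in all distal regions (1.62).

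NFI motifs were densest near the summit, the base with most reads. DIFF-only regions held 5.52 motifs per 100 regions in the 20 bp before the summit and 6.10 between 20 and 40 bp after it, falling to 2.18 and 1.70 in the outermost bins. All distal regions held 2.65 and 3.15 at the same 2 places and 1.55 in the outermost bin before the summit. The share of DIFF-only regions with the NFI motif was 29.8% among the 836 with the lowest percentiles (up to 11.7) and 36.6% among the 779 with the highest (from 36.2). It was 32.5% in introns of coding genes and 33.8% between genes.

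**Figure D3:**
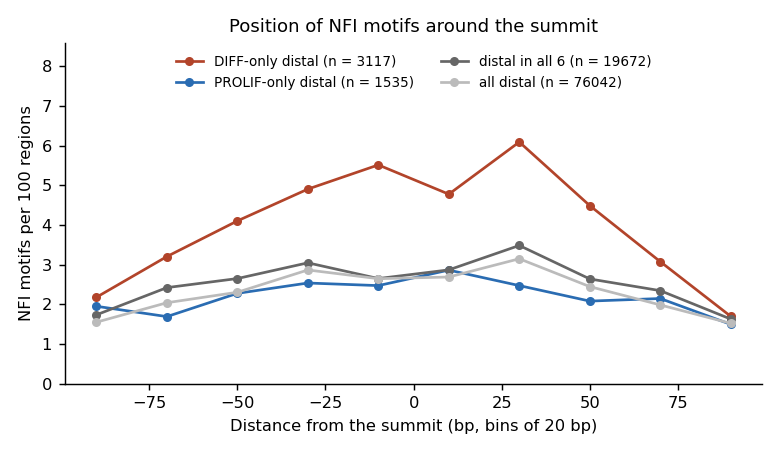
NFI motifs per 100 regions by distance from the summit in bins of 20 bp, for DIFF-only distal, PROLIF-only distal, distal in all 6 libraries and all distal regions. The red line of DIFF-only regions reaches 6.10 and falls to 1.70 at the right edge.

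The AP-1 motif TGACTCA lay in 85 DIFF-only distal regions (2.73%, 2.21 to 3.36%), against 28.8% of PROLIF-only, 6.08% of regions in all 6 libraries and 6.45% of all distal regions. The related CRE motif TGACGTCA, bound by CREB and ATF factors, lay in 3 (0.0962%), against 1.11% of PROLIF-only and 0.329% of all distal regions. The E-boxes bound by neural bHLH factors were also less frequent, with CAGCTG in 15.3%, 34.1%, 25.2% and 20.7% of DIFF-only, PROLIF-only, all-library and all distal regions, and CAGATG in 12.2%, 29.1%, 19.2% and 19.0%. The nuclear receptor motif AGGTCA lay in 8.85%, 20.8%, 10.5% and 11.4%.

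The homeodomain core TAATTA lay in 226 DIFF-only regions (7.25%), against 3.97%, 4.50% and 4.72% in the same order of sets, and it stood at rank 3 among the words of 6 letters. It was less frequent among DIFF-only regions with an NFI motif (5.43%) than among those without (8.15%). The TEAD motif ACATTCCA, read by the effectors of Hippo signalling, lay in 2.57%, 1.43%, 1.57% and 1.74%. Of the SOX motifs, ACAATG was less frequent than in each other set, in 10.7%, 16.3%, 13.2% and 13.0%. ACAAAG lay in 21.4%, 26.4%, 24.0% and 22.2%, close to the share of all distal regions. The CTCF motif lay in 3.34%, 0.847%, 10.7% and 7.18%, and its share in DIFF-only regions was 5.81% without PROLIF 1. Base composition was close to other distal regions, with a median GC of 49.3% against 48.8%, 50.7% and 49.3%. The mean repeat-masked share was 9.64%, against 11.1%, 10.0% and 15.3% in the same order of sets.

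**Figure D4:**
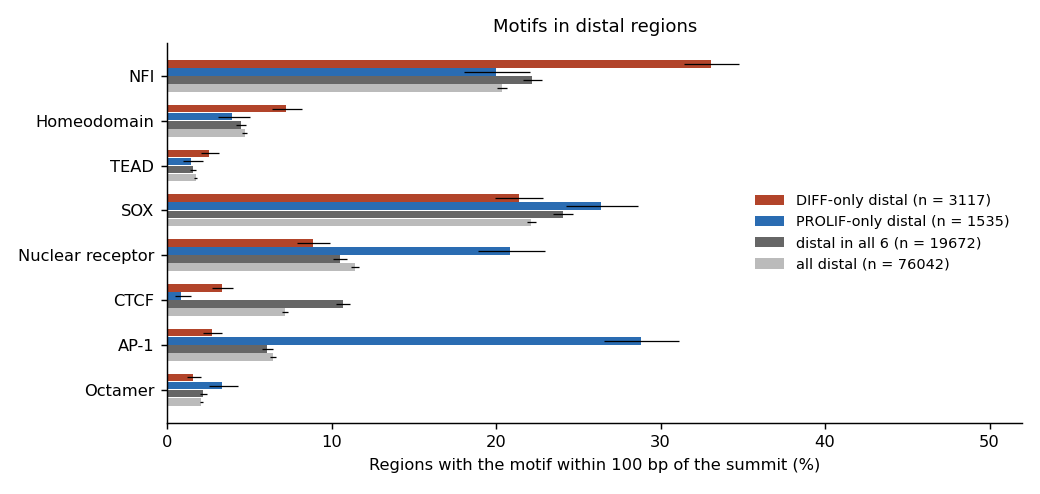
Share of regions with each motif within 100 bp of the summit in DIFF-only distal (n = 3117), PROLIF-only distal (n = 1535), distal in all 6 libraries (n = 19672) and all distal regions (n = 76042), with 95% Wilson intervals. DIFF-only regions have the longest bar for the NFI motif (33.1%) and PROLIF-only regions for AP-1 (28.8%).

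To ask whether the libraries differed in the same motifs elsewhere, the share of distal peaks with each of the 28 motifs was computed per library after every DIFF-only and PROLIF-only region was left out. These peaks did not choose the members, although they include regions short of the definition by 1 or 2 libraries. Among distal regions left in, 3899 had peaks in 2 DIFF libraries only and 13428 in 1 DIFF library only. For PROLIF these numbers were 2413 and 11777. The peaks compared thus still include many found in 1 state only. The NFI motif lay in 20.0%, 19.7% and 19.0% of the peaks of PROLIF 1, 2 and 4 and in 21.3%, 22.5% and 20.9% of those of DIFF 1, 2 and 4. All 3 DIFF libraries were higher, and the difference was 2.01 percentage points (two-sided exact permutation p = 0.1, Benjamini-Hochberg adjusted p = 0.233 over 28 motifs). With 3 libraries against 3 this test cannot go below 0.1, so it cannot pass 0.05. Within the 2 ranges of input numbers carried by the peak names, the difference was 1.83 and 2.01, but the lower range holds 1 DIFF library and the higher range 1 PROLIF library. The full NFI site, in 0.115% of PROLIF and 0.101% of DIFF peaks on average, was lower in all 3 DIFF libraries, opposite to the single arm.

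AP-1 lay in 7.43%, 7.06% and 7.12% of the peaks of PROLIF 1, 2 and 4 and in 4.84%, 4.72% and 4.69% of those of DIFF 1, 2 and 4. All 3 DIFF libraries were lower, with a difference of -2.45 percentage points (exact permutation p = 0.1, adjusted p = 0.233) and of -2.43 and -2.35 within the ranges of input numbers, each with a lone library in one state. The E-boxes CAGCTG and CAGATG and the nuclear receptor motif were also lower in every DIFF library, with differences of -2.49, -2.27 and -1.45 percentage points. The homeodomain motif lay in 4.23%, 4.37% and 3.96% in PROLIF and in 4.30%, 5.18% and 4.81% in DIFF, so its ranges overlapped (difference 0.576, exact permutation p = 0.2). In all, the libraries of the states did not overlap for 12 of 28 motifs, 3 higher and 9 lower in DIFF, and 0 passed in the exact permutation test with or without adjustment, since no p could fall under 0.1.

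**Figure D5:**
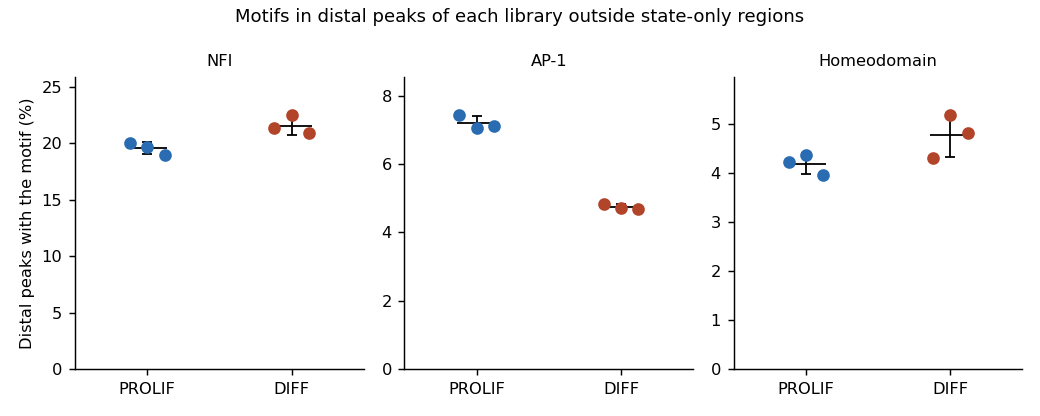
Share of distal peaks outside DIFF-only and PROLIF-only regions that hold the NFI motif, the AP-1 motif or the homeodomain motif in each library (points; black marks are the mean ± SD, n = 3). The DIFF points lie above the PROLIF points for NFI (20.9 to 22.5% against 19.0 to 20.0%), below them for AP-1, and overlap them for the homeodomain motif.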

How the data were processed

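ATAC-seq was performed by the study on *Srr2* del/del cultures, 3 PROLIF and 3 DIFF libraries of 50000 cells each, grouped by the labels. The authors clipped and trimmed reads (Cutadapt, Trimmomatic), aligned them with Bowtie2 (GRCm38, mm10), flagged duplicates in Picard and ran MACS2 for narrow peaks (no model, false discovery rate 0.05); versions are not given in the sources used here. The deposited lists, 1 per library and not pooled, give each peak's fold enrichment over local background and its −log10 p and −log10 q as MACS2 wrote them. Each list held 60006 to 88039 peaks. Read totals are not in these lists, so pileup and background were solved from fold enrichment and p under a Poisson model.

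Peaks on the 19 autosomes were merged where they overlapped, and distance, gene and place were taken from GENCODE M21. Strength was ranked by −log10 p within a list. Shares have 95% Wilson intervals, which cover counting error only. The motif shares of libraries outside state-only regions were compared by a two-sided exact permutation test, adjusted over 28 motifs by Benjamini-Hochberg, and its p-values measure only the spread between these samples. Sequences were read with pysam 0.24.0, statistics came from scipy 1.17.1, tables from pandas 2.3.3 and numpy 2.4.6 (Python 3.11.15), and the merging, distance and motif steps were tested on simulated data. Regions named were the 20 highest ranked, the clusters of 3, the 3 widest and those at the distance limits. Genes named were the 20 with most regions, those of the 24 lists with 2 or more (at most 5 a list), and 10 lineage and cell cycle genes. For length, only some of the named items are given. Some marker genes are not reported here. The regions, lists and motifs were chosen with earlier results of these data known. Alternatives covered peak threshold, list length, overlap, distance limits, motif window and each library left out.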

Additional observations from a re-analysis of the deposited data

How the results depend on the processing

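The shares of introns, NFI motifs and homeodomain motifs stayed above those of all distal regions, and AP-1 below, under all 18 settings. Values that moved are given here, and the cause was not tested. The CTCF share (3.34%) was 4.31% with lists of equal length, 2.01% with the strongest 20000 peaks, 4.81% with cover of at least 50%, 5.52% under the replicate block and 2.73% with a 50 bp window. The homeodomain share (7.25%) was 6.25% with that cover and 3.59% with that window. With a stricter q for presence in DIFF only, 8.78% lay within 20 kb of another and 4.43% had a DIFF-only nearest neighbour. With lists of equal length these were 9.32% and 6.38%, and 52 genes had 3 or more regions. With the strongest 20000 peaks there were 846 regions, 46.1% in introns, 3.07% within 20 kb, 8.98% with a DIFF-only neighbour, 2 genes with 3 or more, a median of 29912 bp to a coding start, 36.4% with the NFI motif, 1.42% with AP-1 and a GC of 51.2%. With cover of at least 50% the median distance was 28777 bp and GC 50.2%. Over 10 kb from a start there were 2049 regions, 49.0% in introns, 39 genes with 3 or more and a median of 41277 bp. With coding starts only, 55.7% lay in introns, 11.6% within 20 kb and the median was 18845 bp. Placing whole regions gave 49.5% in introns, a 50 bp window 21.9% with the NFI motif and 1.64% with AP-1, linking at 50 kb 22.6%, and genes within 50 kb 46 genes with 3 or more.

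The study speaks of paired profiling of the same cultures in both states. Neither labels nor study, however, tie a replicate number to a culture. Over 39088 regions open in all 6 libraries, rank deviations of same-numbered libraries correlated at 0.0551, 0.152 and 0.0122 (replicates 1, 2 and 4). The same number gave the best match for DIFF 1 and for DIFF 2, while DIFF 4 correlated best with PROLIF 1 (0.0611). Such low values cannot decide whether the numbers pair the cultures, so the main results treat the libraries as unpaired. Under the replicate block, a DIFF peak without a PROLIF peak in at least 2 of the 3 same-numbered sets and the opposite in none, there were 9805 regions, 49.1% in introns, 25.5% within 20 kb, 15.8% with a DIFF-only neighbour, 692 genes with 3 or more and 28.5% with the NFI motif. The motif tests could not go below p = 0.25 by exact sign flips. Leaving out 1 library in turn gave 3340 to 5191 regions, 10.7% to 16.6% within 20 kb, 5.54% to 10.0% with a DIFF-only neighbour, 98 to 223 genes with 3 or more, 29.4% to 32.5% with the NFI motif, 3.35% to 5.81% with CTCF and a GC of 48.8% to 49.3%. Leaving out chromosomes 1 and 10, chosen after seeing the data, left 2698 regions. Depth limits every absence: a region with fewer than 10 reads at its summit was called in no library.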
